A study of Mus musculus with 9 samples.

Results

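The 5 Period and cryptochrome genes, Per1, Per2, Per3, Cry1 and Cry2, were followed in mouse embryonic fibroblast (MEF) cultures that were being reprogrammed to induced neurons (iNs). They were found by symbol among the 30406 genes shared by all feature tables, and all 5 were present. UMI (unique molecular identifiers, 1 per captured transcript) of each gene were counted in single cells of 9 libraries, 1 for each of 3 genotypes (WT, Per1-/- and Per2-/-) on each of days 4, 7 and 10. All 5 passed the filter on low counts in every fit described here.

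The mutants carried the alleles Per1tm1Drw and Per2tm1Drw. The MEFs came from pooled mid-gestation embryos whose head and heart had been removed and whose sex was not determined. Every culture, WT included, received lentiviruses for neuronal reprogramming factors with the doxycycline-dependent activator M2rtTA, and doxycycline was present from day 0. The sources used here state no synchronisation of the cells and no clock time of harvest for these libraries, so a level below is that of 1 moment of an unstated phase.

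PER and CRY proteins form the repressor arm of the circadian clock. The activators CLOCK and BMAL1 (gene Arntl) drive transcription of the Per and Cry genes through E-boxes, and the PER and CRY proteins that accumulate enter the nucleus and repress the same activators until they are degraded. Per1 and Per2 also respond acutely to signals that act through CRE sites, whereas D-boxes, bound by DBP, TEF, HLF and the repressor NFIL3, set later phases of transcription. Fibroblasts in culture keep this loop, with each cell on its own phase unless the culture is synchronised.

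The 9 libraries held 6885 to 13309 barcodes and 126625215 to 353198559 UMI, of which 5580 to 10509 cells per library were kept. WT on day 10 stood apart, with a median of 3552 UMI per barcode against 16135 to 25795 in the other 8. Libraries shared up to 365 barcodes, the most between Per1-/- on day 4 and Per2-/- on day 7. The mix of cells differed too. Macrophage-like cells made 1.999% to 4.61% of cells on day 4 and 4.19% to 23.3% on days 7 and 10, and neuron-like cells made 19.1% to 27.8% on day 4 and 3.21% to 7.73% on day 10. Cells of unnamed clusters made 40.7% of WT on day 10, with a median of 4145 UMI, and 1.77% to 22.2% of the other libraries, so the shares of named classes in WT on day 10 are of fewer named cells. The 14 neuron markers summed over whole cultures to 692 CPM on day 4 and 666 CPM on day 10 in WT. Xist stood at 348 to 996 CPM (UMI scaled for depth, so that every library or class sums to the same total) in 7 libraries and at 0.0750 and 0.0541 CPM in Per1-/- on days 7 and 10, where Y-linked genes stood at 209 and 217 CPM against 50.5 to 119 CPM elsewhere. The part of cell mix and of depth in the genotype differences below was tested only where a value is given. Y-linked levels were higher in all Per1-/- libraries (119 to 217 CPM) than in those of WT and Per2-/- (50.5 to 114 CPM). Sex and the Per1-/- genotype can therefore not be told apart, and a fit with the Y-linked level as covariate does not separate them.

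The promoters of 4 of the members were read from RefSeq for the sites through which the clock acts. They are shown because these genes carry different combinations of E-box, D-box and CRE letters in the 250 bases before a transcription start. The bases in capitals are the E-box CACGTG, its variant E-prime box CACGTT, which may read AACGTG on the opposite strand, and the D-box TTATGTAA. Each was searched on both strands, and the windows are of the GRCm38.p6 build.
Per1 (chr11:69098699-69098948, plus strand): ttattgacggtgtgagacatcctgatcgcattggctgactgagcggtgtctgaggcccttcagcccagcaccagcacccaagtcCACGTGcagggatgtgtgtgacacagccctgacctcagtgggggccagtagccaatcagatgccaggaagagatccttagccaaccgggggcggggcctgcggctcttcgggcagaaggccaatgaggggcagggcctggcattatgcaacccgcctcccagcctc
Per3 (chr4:151044666-151044915, minus strand): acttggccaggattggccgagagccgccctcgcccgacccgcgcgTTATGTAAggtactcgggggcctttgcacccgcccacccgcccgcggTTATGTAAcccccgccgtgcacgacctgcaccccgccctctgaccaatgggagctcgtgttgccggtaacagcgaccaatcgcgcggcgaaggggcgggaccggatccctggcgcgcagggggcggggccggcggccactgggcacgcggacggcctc
Cry1 (chr10:85185055-85185304, minus strand): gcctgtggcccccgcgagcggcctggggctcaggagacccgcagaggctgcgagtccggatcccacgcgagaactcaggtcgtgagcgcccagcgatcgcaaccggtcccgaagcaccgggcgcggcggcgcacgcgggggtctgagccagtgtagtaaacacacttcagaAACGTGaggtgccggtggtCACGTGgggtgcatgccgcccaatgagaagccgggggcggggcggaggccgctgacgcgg
Cry2 (chr2:92434070-92434319, minus strand): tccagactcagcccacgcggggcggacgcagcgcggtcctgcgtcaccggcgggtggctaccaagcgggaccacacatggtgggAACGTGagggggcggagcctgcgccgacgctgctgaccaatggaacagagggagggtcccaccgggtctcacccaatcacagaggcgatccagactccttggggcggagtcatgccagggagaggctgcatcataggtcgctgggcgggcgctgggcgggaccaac

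The Per1 window held an E-box 166 bases before its start and lies inside the gene as GENCODE annotates it, whose first transcripts begin further upstream. The window of a second Per1 start further downstream held none of these letters except the CRE half-site TGACG. The Per3 window held 2 copies of the D-box TTATGTAA, 205 and 158 bases before the start, and no E-box or CRE half-site. The Cry1 window held an E-box 60 bases before the start and an E-prime box 79 bases before it. Cry2 held an E-prime box 166 bases before its start. The half-site TGACG was found in the windows of Per1, Cry1 and Cry2, and the full CRE TGACGTCA and the D-box TTACGTAA in none of them. Over all 32851 windows of the table, 6.02% held CACGTG, 3.85% CACGTT, 0.819% TTATGTAA, 0.113% TTACGTAA, 17.8% TGACG and 1.55% TGACGTCA. These matches are letters in a window and were not measured as binding sites.

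The genes lie apart in the genome (GRCm38, GENCODE M21). Per1 spans chr11:69095217-69109960 on the plus strand. The other 4 are on minus strands, Per2 at chr1:91415982-91459324, Per3 at chr4:151003652-151044665, Cry1 at chr10:85131700-85185064 and Cry2 at chr2:92403646-92434043. Per3 lies within the span of Camta1, a gene of the same strand, which also covers the 3′ end of Per3. The part of Camta1 transcripts in the counts of Per3 was not tested. Cry2 is overlapped on the opposite strand by D930015M05Rik, which the feature tables do not list.

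Across whole cultures, Per1 and Per2 had the largest log2 folds against WT in edgeR, each in the cultures that carry its own mutation, and Per3 was the member that moved most with day. Per1, the period gene with the fastest response to signals, stood at 6.33, 6.62 and 7.74 CPM in WT on days 4, 7 and 10. It stood at 9.05, 9.53 and 10.3 CPM in Per1-/- and at 7.23, 6.49 and 6.42 CPM in Per2-/-. The 3 Per1-/- libraries were thus the highest of the 9 and did not overlap the others. The share of all genes that separate a genotype or a day in this way was not counted, here or below.

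Per2, whose protein limits the repressor complex, stood at 2.63, 2.84 and 2.94 CPM in WT and at 2.57, 2.58 and 3.17 CPM in Per1-/-. In Per2-/- it stood at 6.32, 4.97 and 6.45 CPM. The 3 Per2-/- libraries lay above the other 6, between which WT and Per1-/- overlapped. A 3′ tag outside the deleted part of a gene says nothing about the deletion, and the exons removed by each allele are not given in the sources used here, so these levels do not check the genotype labels.

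Per3, a period gene that is dispensable for the core loop, stood at 22.2, 30.6 and 34.0 CPM in WT. It stood at 24.7, 38.6 and 46.7 CPM in Per1-/- and at 19.6, 22.5 and 33.6 CPM in Per2-/-. Within each genotype day 4 was the lowest and day 10 the highest of the 3 days, and on each day Per1-/- was above WT and Per2-/- below it.

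The cryptochromes, whose proteins carry the repressor activity of the complex, varied less. Cry1 stood at 11.99, 11.89 and 11.54 CPM in WT, at 10.8, 9.90 and 10.3 CPM in Per1-/- and at 11.0, 13.04 and 11.8 CPM in Per2-/-. All 3 Per1-/- values lay below all 6 others, the nearest being 10.8 and 11.0 CPM, and Cry1 was not called between genotypes in the edgeR fits below. Cry2 stood at 13.7, 17.7 and 18.5 CPM in WT, at 14.0, 16.5 and 18.4 CPM in Per1-/- and at 14.5, 14.1 and 14.5 CPM in Per2-/-. Over the 9 libraries the coefficient of variation was 8.53% for Cry1, 12.8% for Cry2, 19.6% for Per1, 29.4% for Per3 and 42.5% for Per2. These pool the genotypes, and for Per1 and Per2 they include the cultures that carry the gene's own mutation. In the 3 WT libraries alone the levels were 6.89 ± 0.75 CPM (SD) for Per1 and 2.805 ± 0.16 for Per2. They were 28.9 ± 6.1 for Per3, 11.8 ± 0.24 for Cry1 and 16.6 ± 2.6 for Cry2. Relative to its mean, Cry2 thus varied more than Per1 and Per2 within WT. Counts of 251 to 7763 UMI per gene and library lie behind these levels. Since each genotype and day has a single library, the spread in the genotype and day fits below is what both factors leave between libraries.

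**Figure D1:**
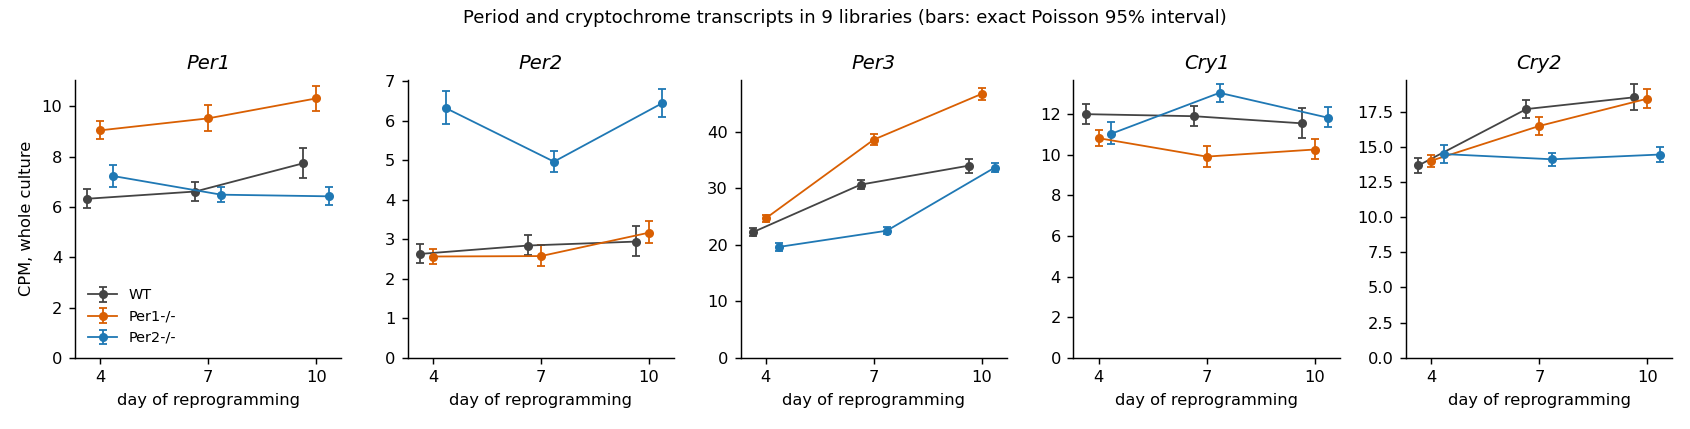
CPM (vertical axis, from 0) of each member in the whole culture by day of reprogramming (horizontal axis) for WT, Per1-/- and Per2-/-, 1 point per library, with exact Poisson 95% intervals that cover counting error only. Per1 was highest in the 3 Per1-/- libraries (9.05 to 10.3 CPM), Per2 was highest in the 3 Per2-/- libraries (4.97 to 6.45 CPM), and Per3 was highest on day 10 within each genotype.

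The first comparison asked whether a member's level differed between genotypes by more than the spread between libraries that remains after day and genotype. Sums of each library were tested with edgeR's quasi-likelihood F-test, two-sided, with day and genotype as factors and Benjamini-Hochberg adjustment over all 18820 genes tested. For Per1 the log2 fold of Per1-/- over WT was 0.58 ± 0.12 (SE; 3 libraries against 3; adjusted p = 0.049). It was the only member of the 5 that passed in this contrast, in which 2.34% of all genes passed. Within a day, Per1 in Per1-/- was 1.43 times WT on day 4 (95% interval 1.33 to 1.53), 1.44 times on day 7 (1.33 to 1.56) and 1.33 times on day 10 (1.22 to 1.46).

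The call for Per1 was near the threshold. The fold ranged from 0.54 to 0.65 when any 1 of the 9 libraries was left out, and the call was kept in 2 of these 9 fits, those without Per1-/- or Per2-/- on day 4, with adjusted p up to 0.30 in the rest. Without the barcodes found in 2 or more libraries it was 0.57 ± 0.11 (adjusted p = 0.047). With the Y-linked level of each library as a covariate the fold was 0.34 ± 0.24 (adjusted p = 1.0 in edgeR). This covariate was highest in the Per1-/- libraries and cannot be separated from that genotype. Per1 was also higher in Per1-/- than in Per2-/-, by 0.54 ± 0.12, without passing (adjusted p = 0.11). In Per2-/- against WT it differed by 0.04 ± 0.12.

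For Per2 the log2 fold of Per2-/- over WT was 1.14 ± 0.15, the largest difference from WT of any member in whole cultures, and it did not pass the adjustment (adjusted p = 0.17). In that contrast 0.0% of genes passed in edgeR, 0 of 18820, of which 1561 had an unadjusted p under 0.05. By limma-voom 0 passed and by DESeq2 295, Per2 among them (1.13, adjusted p = 1.03e-08). Within a day Per2 in Per2-/- was 2.40 times WT on day 4 (95% interval 2.15 to 2.69), 1.75 times on day 7 (1.58 to 1.94) and 2.19 times on day 10 (1.91 to 2.52). With the Y-linked covariate the fold was 1.01 ± 0.15, and without the barcodes found in 2 or more libraries it was 1.13 ± 0.15.

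Between the mutants, the log2 fold of Per2 in Per1-/- over Per2-/- was -1.07 ± 0.15 (adjusted p = 0.039), where 0.558% of genes passed. Leaving out 1 library moved this fold between -1.19 and -0.97, and the call was kept only without Per1-/- on day 4. Against WT, Per2 in Per1-/- differed by 0.07 ± 0.15.

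The 3 other members did not pass between genotypes in whole cultures. Per3 differed from WT by 0.41 ± 0.13 in Per1-/- (adjusted p = 0.18) and by -0.14 ± 0.13 in Per2-/- (adjusted p = 0.81), and the mutants differed by 0.55 ± 0.13 (adjusted p = 0.12; DESeq2 0.0069). With the Y-linked covariate, Per3 in Per1-/- against WT was -0.10 ± 0.20. Cry1 differed from WT by -0.10 ± 0.09 in Per1-/- and 0.09 ± 0.09 in Per2-/-, and Cry2 by 0.07 ± 0.11 and -0.12 ± 0.11. The median log2 fold over the 5 members was 0.07 in Per1-/- and 0.04 in Per2-/-, and over all genes tested it was 0.01 and 0.00.

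Of 29 other genes of the clock, listed by role, 2 passed in Per1-/- against WT, where 2.34% of all genes passed. Bhlhe41 (DEC2, a repressor at E-boxes) was higher by 0.94 ± 0.15 (adjusted p = 0.022), and Rorb, an activator at ROR elements, was lower by 0.76 on the log2 scale (SE 0.15, adjusted p = 0.044). Bhlhe41 was also the one listed gene to pass between the mutants, higher in Per1-/- by 0.99 ± 0.15. In macrophage-like cells Bhlhe41 stood above fibroblast-like cells by 4.33 ± 0.15, and the 14 macrophage markers summed to 1293 to 6795 CPM in Per1-/- cultures against 531 to 2261 CPM in WT. Rorb had a median of 28.7 CPM in neuron-like and 2.70 CPM in fibroblast-like cells, and the 14 neuron markers summed to 698, 344 and 349 CPM in Per1-/- cultures on days 4, 7 and 10 against 692, 643 and 666 CPM in WT, lower on days 7 and 10 but not on day 4. The part of macrophage-like cells in the whole-culture difference of Bhlhe41, and of neuron-like cells in that of Rorb, was not tested. In Per2-/- against WT none of the 29 passed in edgeR.

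The same contrast was then made within cell classes. A class pools several clusters, and their shares within it were not held between libraries. Cells were clustered and the clusters were named from markers, which gave fibroblast-like, neuron-like, macrophage-like, skeletal muscle-like and Schwann cell-like classes with at least 118 cells in each library, and astrocyte-like and mesothelium-like classes with fewer cells. Of the 4 neuron-like clusters, 1 of 3542 cells had a mean marker log2 fold of 1.02, just over the limit of 1, and no neuron marker among its 10 leading genes. At Leiden resolution 0.5 a cluster of 2612 cells led by some of the same genes (Gcg, Pln and Nts) stayed unnamed. A fibroblast-like cluster was led by neural genes such as Tac1, Calca and Cbln2. In sums of a class, fewer transcripts per cell and fewer cells transcribing cannot be told apart. No member passed between a mutant and WT in any of the 5 classes in edgeR. Backgrounds were as low: 0.0%, 0.0%, 0.00783%, 0.0801% and 0.0% of genes passed for Per1-/- in fibroblast-like, neuron-like, macrophage-like, Schwann cell-like and skeletal muscle-like cells, and 0.0%, 0.0138%, 0.0%, 0.0% and 0.105% for Per2-/-. Where no gene passed, 657 to 1549 genes for Per1-/- and 885 to 2010 genes for Per2-/- had an unadjusted p under 0.05, limma-voom passed 0, and DESeq2 passed 16 to 230 and 20 to 165 genes.

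Per2 lay higher in Per2-/- than in WT in each of the 5 classes, by log2 folds of 1.16 ± 0.19 in fibroblast-like, 1.42 ± 0.23 in neuron-like, 1.21 ± 0.29 in macrophage-like, 1.34 ± 0.27 in skeletal muscle-like and 1.08 ± 0.31 in Schwann cell-like cells. The adjusted p in edgeR ran from 0.14 to 0.45. In neuron-like cells, Per2 stood at 7.49, 8.23 and 10.3 CPM in Per2-/- on days 4, 7 and 10 against 2.91, 3.52 and 2.60 CPM in WT and 3.16, 2.14 and 4.63 CPM in Per1-/-. In macrophage-like cells it stood at 2.78, 3.40 and 2.62 CPM in Per2-/-, against 1.56, 1.31 and 1.22 CPM in WT and 1.22, 1.22 and 1.03 CPM in Per1-/-. In both classes the 3 Per2-/- sums lay above the 6 others. The macrophage-like WT sums rest on 6, 17 and 7 UMI, and the 95% intervals of the Per2-/- to WT ratio held 1 on day 4 (0.62 to 5.80) and day 10 (0.97 to 5.61) but not on day 7 (1.55 to 4.63). In neuron-like cells WT on day 10 and Per1-/- on day 7 rest on 9 UMI each. DESeq2 passed Per2 in fibroblast-like cells (1.16, adjusted p = 0.00013) and in neuron-like cells (1.44, adjusted p = 0.0054).

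In Schwann cell-like cells the Per2 levels of Per1-/- overlapped those of Per2-/- and lay above WT. Per2 stood at 6.02, 8.59 and 6.04 CPM in Per1-/-, at 6.10, 6.90 and 7.11 CPM in Per2-/- and at 2.75, 3.11 and 3.65 CPM in WT. Per2 in Per1-/- differed from WT there by 1.11 ± 0.32 (adjusted p = 0.37) and from Per2-/- by 0.03 ± 0.27. The WT sums rest on 6 to 11 UMI each, and whether Per1-/- acts on Per2 differently in Schwann cell-like cells than in other classes was not tested.

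Per1 lay higher in Per1-/- than in WT by 0.62 ± 0.11 in fibroblast-like cells (adjusted p = 0.35; DESeq2 0.0016). There it stood at 9.21, 10.4 and 11.8 CPM in Per1-/- against 6.19, 7.04 and 8.11 CPM in WT, with no overlap. The fold was 0.65 ± 0.27 in skeletal muscle-like and 0.66 ± 0.30 in Schwann cell-like cells, and 0.20 ± 0.17 in neuron-like and 0.22 ± 0.22 in macrophage-like cells. The difference between neuron-like and fibroblast-like cells in this effect was -0.42 ± 0.22 and did not pass (adjusted p = 1.0).

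Per3 differed most in macrophage-like cells. It stood at 8.31, 8.84 and 10.6 CPM in WT on days 4, 7 and 10, at 11.2, 18.8 and 21.3 CPM in Per1-/- and at 7.87, 16.1 and 17.7 CPM in Per2-/-. On days 7 and 10 both mutants lay above WT, and on day 4 only Per1-/- did, from 32 to 174 UMI per sum. The log2 folds were 0.96 ± 0.17 in Per1-/- (adjusted p = 0.29; DESeq2 0.011) and 0.66 ± 0.18 in Per2-/- (adjusted p = 0.21). Markers of fibroblasts, a class with more Per3, had a median sum in macrophage-like cells of 1.20% of that in their own class.

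**Figure D2:**
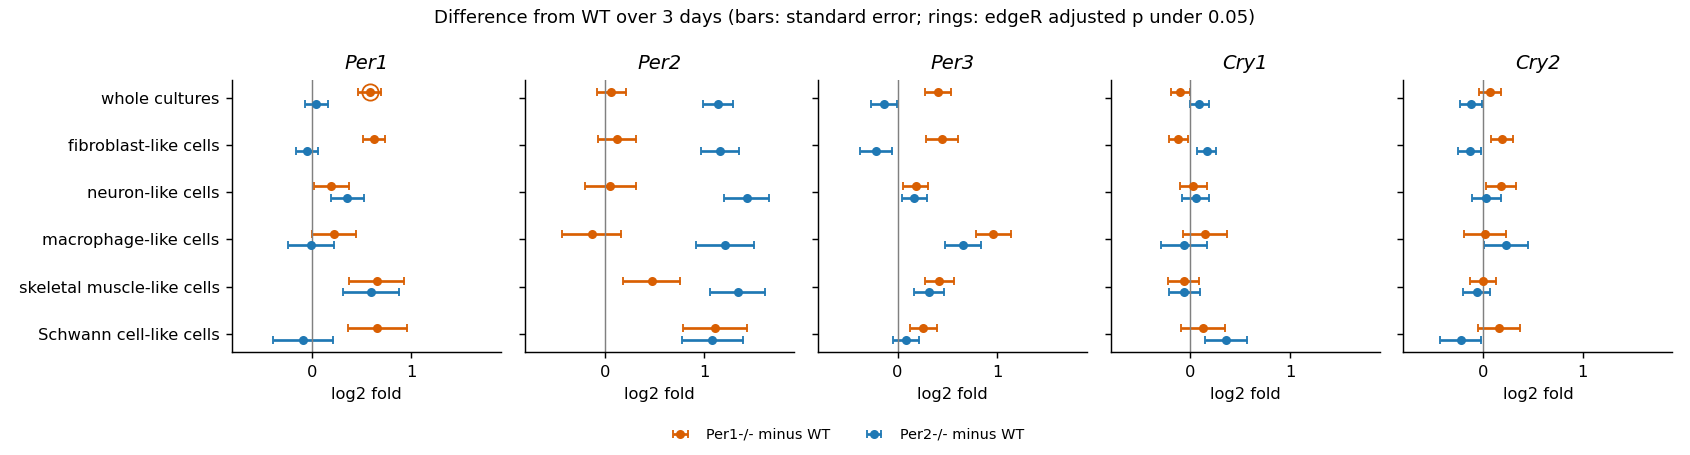
Log2 fold against WT (horizontal axis) of each member in whole cultures and in 5 cell classes (rows), with standard errors as bars, for Per1-/- and Per2-/- over 3 days. The ring marks the 1 adjusted p under 0.05 in edgeR (Per1 in whole Per1-/- cultures, 0.58), and Per2 in Per2-/- lies between 1.08 and 1.42 in every row.

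Whether a mutation acted on a member differently in one class than in another was tested as an interaction in 27 sums of fibroblast-like, neuron-like and macrophage-like cells. Per3 was the only member that passed. Its Per2-/- minus WT difference was higher in macrophage-like than in fibroblast-like cells by 1.07 ± 0.20 (adjusted p = 0.022), where 2.97% of 17245 genes passed and the median over all genes was 0.14. In fibroblast-like cells Per3 stood at 20.9, 22.3 and 36.7 CPM in Per2-/- against 23.4, 34.4 and 37.5 CPM in WT, below WT on each day. Leaving out 1 library moved the interaction between 0.70 and 1.24, and the call was lost without WT, Per1-/- or Per2-/- on day 7 and without WT or Per2-/- on day 10, with adjusted p up to 0.33.

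The other genotype interactions left no member past the threshold. The same interaction of Per3 for Per1-/- was 0.66 ± 0.19 (adjusted p = 0.16), where 0.0464% of genes passed. Between neuron-like and macrophage-like cells 0.029% of genes passed for Per1-/- and 0.139% for Per2-/-. Between neuron-like and fibroblast-like cells 0.0% passed for both mutants. An unadjusted p under 0.05 was found for 818 and 816 genes there in edgeR, the one tool run for interactions. Of the 29 other clock genes, 6 passed in the Per2-/- interaction of macrophage-like minus fibroblast-like cells, against the 2.97% of all genes. Among them the clock-controlled genes Dbp, Nr1d1 (REV-ERBα) and Tef differed by 1.52 ± 0.18, 1.63 ± 0.25 and 0.63 ± 0.12. For Per1-/- Dbp passed too. Its difference from WT was higher in macrophage-like than in fibroblast-like cells and lower in neuron-like than in macrophage-like cells.

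The next question was how the members stood in each cell class. Cry2 had the widest contrast, and stood at 29.5 ± 2.9 CPM (SD, n = 9) in skeletal muscle-like cells and at 3.21 ± 0.40 CPM in macrophage-like cells. Levels are given for each class as the mean over libraries with at least 50 of its cells. UMI of 3′ tags were not scaled by length, and levels are compared between classes and not between genes. Neighbours in each order were compared by an exact sign-flip permutation test on log2(CPM + 1), two-sided, paired by library, with adjustment over 30 pairs. The smallest p the test can give is 0.0039 with 9 libraries, 0.0078 with 8, 0.13 with 4 and 0.25 with 3, so pairs with mesothelium-like cells could not pass.

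For Per1 the order ran from mesothelium-like (8.52 ± 3.45 CPM, SD, n = 4) and fibroblast-like cells (8.04 ± 1.997, n = 9) over Schwann cell-like (7.61 ± 2.82, n = 9), astrocyte-like (7.60 ± 3.07, n = 8) and neuron-like cells (7.24 ± 1.13, n = 9) to macrophage-like (6.03 ± 0.97, n = 9) and skeletal muscle-like cells (5.66 ± 1.61, n = 9). These means pool the genotypes, and the 4 mesothelium-like sums are 3 of Per1-/- and 1 of Per2-/-, with none of WT. Paired by library, Per1 in mesothelium-like cells lay above fibroblast-like cells in 2 of 4 libraries, with a mean log2 difference of -0.20. No neighbouring pair of this order differed beyond the spread, with adjusted p of 0.12 and above in the exact test.

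Per2 was highest in astrocyte-like cells (9.92 ± 5.50 CPM, SD, n = 8) and lowest in macrophage-like cells (1.82 ± 0.87, n = 9). Between them came mesothelium-like (5.70 ± 2.70, n = 4), Schwann cell-like (5.59 ± 1.99), skeletal muscle-like (5.17 ± 2.21), neuron-like (4.99 ± 2.92) and fibroblast-like cells (3.69 ± 1.61). These means pool the genotypes too. Paired by library, mesothelium-like cells lay above Schwann cell-like cells in 1 of 4 libraries, with a mean log2 difference of -0.26. The step from fibroblast-like to macrophage-like cells was the one that passed, in 9 of 9 libraries, at an exact permutation p of 0.0039, the smallest possible, and an adjusted p of 0.047.

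Per3 was highest in Schwann cell-like (42.6 ± 8.5 CPM, SD, n = 9) and astrocyte-like cells (37.4 ± 7.5, n = 8). It fell over fibroblast-like (33.7 ± 11.8), mesothelium-like (32.8 ± 8.3), skeletal muscle-like (24.8 ± 5.2) and neuron-like cells (18.2 ± 2.6) to macrophage-like cells (13.4 ± 5.1). Astrocyte-like cells were above fibroblast-like cells in 8 of 8 libraries (exact permutation, adjusted p of 0.047), and this step was near 0 in edgeR with TMM scaling (-0.01 ± 0.14). The other neighbouring steps did not pass.

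Cry1 was highest in astrocyte-like (19.0 ± 1.1 CPM, SD, n = 8) and neuron-like cells (16.9 ± 1.9, n = 9), which differed in 8 of 8 libraries (exact permutation, adjusted p of 0.047). Skeletal muscle-like (15.5 ± 1.95), Schwann cell-like (12.9 ± 2.2), fibroblast-like (10.7 ± 1.1), mesothelium-like (8.73 ± 2.12) and macrophage-like cells (7.26 ± 1.19) followed, with no neighbouring pair past the threshold.

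Cry2 was highest in skeletal muscle-like cells (29.5 ± 2.9 CPM, SD, n = 9), above astrocyte-like cells (21.3 ± 7.2, n = 8) in 8 of 8 libraries. Fibroblast-like (16.9 ± 3.3), mesothelium-like (15.1 ± 1.2), Schwann cell-like (14.2 ± 2.7) and neuron-like cells (14.1 ± 2.0) lay close together. Macrophage-like cells were last, below neuron-like cells in 9 of 9 libraries and over a range (2.84 to 4.03 CPM) that met no other class with at least 50 cells. Both of these steps had an exact permutation adjusted p of 0.047.

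**Figure D3:**
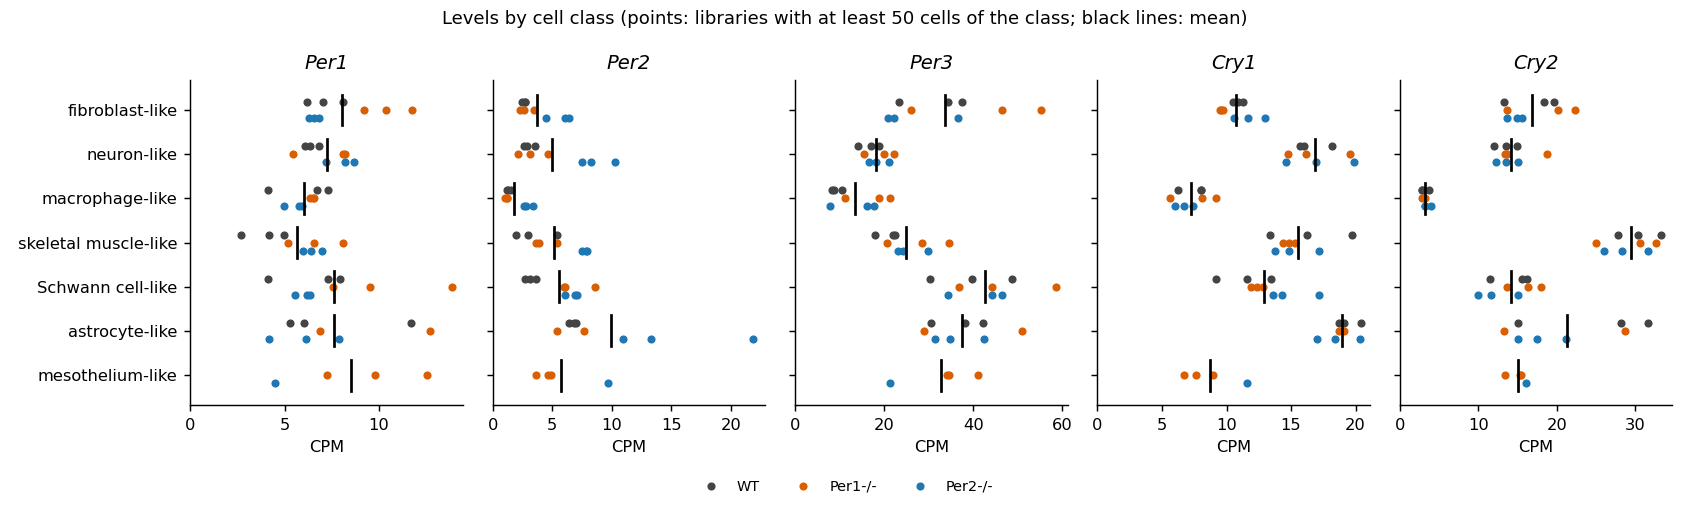
CPM (horizontal axis, from 0) of each member in 7 cell classes (rows), 1 point per library with at least 50 cells of the class, coloured by genotype, with the mean as a black line. Cry2 lies between 2.84 and 4.03 CPM in macrophage-like cells and between 25.02 and 33.2 CPM in skeletal muscle-like cells, and the Per2-/- points of Per2 lie to the right of the WT points in the classes with both.

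The same differences were fitted for all genes with library as a block, which answered how each class stands against fibroblast-like cells. Most genes differ between classes, so a call alone says little: 79.2% of 15345 genes passed for neuron-like, 83.8% for macrophage-like, 71.7% for skeletal muscle-like, 67.7% for Schwann cell-like, 66.3% for astrocyte-like and 33.0% for mesothelium-like cells, and 86.0% between neuron-like and macrophage-like cells. These folds are on the TMM scale. On plain CPM the median over 11503 genes is shifted by 0.33 in neuron-like, -0.21 in macrophage-like, 0.20 in skeletal muscle-like, 0.14 in Schwann cell-like, 0.15 in astrocyte-like and -0.01 in mesothelium-like cells against fibroblast-like cells, and by 0.55 between neuron-like and macrophage-like cells.

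In neuron-like cells, the class reprogramming makes, Per3 was lower than in fibroblast-like cells by a log2 fold of -1.22 ± 0.14 (adjusted p = 2.8e-11), Cry2 by -0.67 ± 0.10 (7.4e-08) and Per1 by -0.52 ± 0.14 (7.0e-04). Cry1 was higher by 0.22 ± 0.09 (adjusted p = 0.020 in edgeR, lost without WT or Per1-/- on day 10, without the filter, at 0.17, and at Leiden resolution 0.5, at 0.06), and Per2 did not differ beyond its error (-0.01 ± 0.15). On plain CPM Per3 and Cry2 were lower by 0.80 and 0.23 and Cry1 and Per2 higher by 0.60 and 0.28, while Per1 was higher in 4 of 9 libraries, so the fall of Per1 rests on the scaling. These differences pool the days, and that of Per3 changed with day. On day 4 Per3 stood at 18.8, 19.9 and 21.0 CPM in neuron-like cells of WT, Per1-/- and Per2-/-. It stood at 23.4, 26.1 and 20.9 CPM in fibroblast-like cells that day, and the gap was wider on day 10, as given below. Among the 29 other clock genes, 10 passed higher and 10 lower of 27 tested, against 79.2% of all genes. All 4 kinases that act on PER were higher, Csnk1e most (1.75 ± 0.07), and the E-box repressors were lower on the TMM scale, Bhlhe40 most (-3.33 ± 0.17). Bhlhe41 among them had a median of 8.30 CPM in neuron-like and 7.76 CPM in fibroblast-like cells, so its direction depends on the scaling.

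In macrophage-like cells Cry2 had the largest difference of the members from fibroblast-like cells. It was lower by -2.09 ± 0.11 (adjusted p = 4.0e-22), Per3 by -0.99 ± 0.14 (6.7e-09), Per2 by -0.77 ± 0.16 (2.6e-05) and Cry1 by -0.27 ± 0.09 (0.0048). Per1 differed by -0.14 ± 0.14 and did not pass in edgeR. With 83.8% of all genes called, 6791 of 15345 of them as lower, the count of 4 of 5 members called is near the background. On plain CPM Cry1 was lower by 0.52 in 9 of 9 libraries, and Per1 differed by -0.35 and was higher in 1 of 9. Of the 29 other clock genes, 8 passed higher and 12 lower of 27 tested. The 3 PAR bZIP factors Dbp, Tef and Hlf and their repressor Nfil3 were among the lower ones, Hlf most (-5.03 ± 0.35), and 2 of 3 E-box repressors were higher, Bhlhe41 most (4.33 ± 0.15). Macrophage markers in the other classes had median sums over libraries of at most 0.264% of the median in macrophage-like sums (24250 CPM), and the highest single sum was 161.7 CPM, in neuron-like cells.

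Between neuron-like and macrophage-like cells, Cry2 was higher in the former by 1.42 ± 0.12, Per2 by 0.75 ± 0.17 and Cry1 by 0.49 ± 0.09 (1.84, 1.003 and 1.12 on plain CPM). Per1 was lower by -0.38 ± 0.14 on the TMM scale (adjusted p = 0.015), did not pass with RLE size factors (-0.20 ± 0.15), and on plain CPM was higher in 7 of 9 libraries, by 0.23. Per3 differed by -0.23 ± 0.14 on the TMM scale and by 0.48 on plain CPM, without passing. This difference of Per3 changed with day too, as given below.

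In the smaller classes 4 members were called in skeletal muscle-like, 2 in Schwann cell-like and 2 in astrocyte-like cells, against 71.7%, 67.7% and 66.3% of all genes. Marker levels beside them are ratios of medians over libraries. Skeletal muscle-like cells had more Cry2 (0.52 ± 0.10, adjusted p = 1.0e-05) and Cry1 (0.21 ± 0.09, a call lost in 4 of the 9 fits without 1 library, those without Per1-/- on day 4, WT or Per1-/- on day 7, or WT on day 10) and less Per1 (-0.77 ± 0.15) and Per3 (-0.71 ± 0.14) than fibroblast-like cells, and the neuron list stood in them at 30.2% of its level in neuron-like cells. On plain CPM these differences were 0.79 for Cry2, 0.49 for Cry1, -0.45 for Per1 and -0.38 for Per3. Schwann cell-like cells had more Per2 (0.46 ± 0.17, a call lost without Per1-/- on day 4 or 7) and less Cry2 (-0.42 ± 0.11, and -0.23 on plain CPM). In them the neuron list stood at 33.5% and the fibroblast list at 24.45% of the level in their own classes, and the part of either in these differences was not tested. Astrocyte-like cells had more Per2 (1.13 ± 0.16, adjusted p = 5.6e-08) and Cry1 (0.59 ± 0.10), and the Schwann cell list stood in them at 214% of its level in Schwann cell-like cells. That list includes Fabp7, which was also a leading gene of the astrocyte-like cluster. In mesothelium-like cells no member passed in edgeR, 2 having an unadjusted p under 0.05.

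Per3 rose from day 4 to day 10. In whole cultures the log2 fold was 0.81 ± 0.13 (adjusted p = 0.0046), where 22.7% of genes passed, and it was past the threshold in each of the 9 fits that left out 1 library (0.69 to 0.92). Day 10 came from another version of Cell Ranger and another feature table than days 4 and 7, so the 2 cannot be told apart in this contrast. From day 4 to day 7, which share both, Per3 was higher by 0.49 ± 0.13 without passing (adjusted p = 0.056; DESeq2 0.012, limma-voom 0.0499), where 9.57% of genes passed. From day 7 to day 10, where 1.56% passed, it differed by 0.32 ± 0.13 (adjusted p = 0.45).

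The rise of Per3 was seen in fibroblast-like cells (0.82 ± 0.16, adjusted p = 0.015, background 18.9%), macrophage-like cells (0.95 ± 0.18, 0.013, background 17.2%) and Schwann cell-like cells (0.59 ± 0.14, 0.020, background 13.8%). The call was lost without Per1-/- or Per2-/- on day 10 in fibroblast-like, without Per1-/- on day 4 or 10 in macrophage-like, and without WT or Per1-/- on day 4 or 10 in Schwann cell-like cells, where DESeq2 gave an adjusted p of 0.078. In skeletal muscle-like cells the fold was 0.40 ± 0.15 (adjusted p = 0.12, background 10.6%). In neuron-like cells it had the other sign, -0.26 ± 0.13 (adjusted p = 0.12), while 42.9% of genes passed there.

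The values by library show the split. In fibroblast-like cells Per3 stood at 23.4, 26.1 and 20.9 CPM on day 4 in WT, Per1-/- and Per2-/-, and at 37.5, 55.2 and 36.7 CPM on day 10. In neuron-like cells it stood at 18.8, 19.9 and 21.0 CPM on day 4 and at 14.2, 15.6 and 16.6 CPM on day 10, with 49 to 764 UMI per sum. The days did not overlap in either class, day 10 being the higher in fibroblast-like and the lower in neuron-like cells. In neuron-like sums the fibroblast list stood at 3.02% of its own class's level, as a ratio of medians over libraries. Neuron-like clusters differed in Per3, at 19.6 and 19.3 CPM in those of 4327 and 3542 cells. It stood at 15.5 CPM in that of 1307 cells, of which 54.5% came from 1 library. The part of cluster shares, in either class, in the change with day was not tested.

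The difference itself was tested with contrasts added after these values were seen. The change of Per3 from day 4 to day 10 was lower in neuron-like than in fibroblast-like cells by -1.16 ± 0.18 (adjusted p = 2.7e-04), where 32.5% of genes passed and the median over all genes was -0.09. It was lower in neuron-like than in macrophage-like cells by -1.29 ± 0.22 (adjusted p = 5.7e-04), where 28.9% passed and the median was -0.15. Macrophage-like and fibroblast-like cells differed by 0.14 ± 0.20 (adjusted p = 0.73), where 15.3% passed. The interactions stayed past the threshold without any 1 library (-1.27 to -1.06 and -1.40 to -1.14). No other member passed an interaction of class with day.

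**Figure D4:**
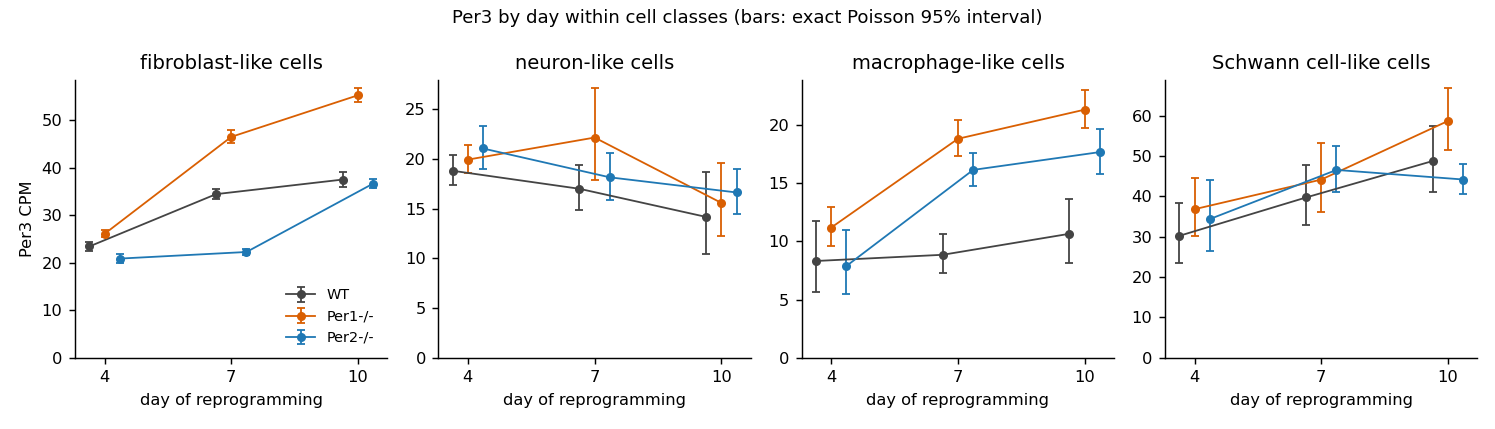
CPM of Per3 (vertical axis, from 0) by day of reprogramming (horizontal axis) in each cell class shown, 1 point per library, with exact Poisson 95% intervals that cover counting error only. In fibroblast-like cells the 3 genotypes lie at 20.9 to 26.1 CPM on day 4 and at 36.7 to 55.2 CPM on day 10, and in neuron-like cells at 18.8 to 21.0 CPM and 14.2 to 16.6 CPM.

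Cry2 rose with day in fibroblast-like cells, by 0.44 ± 0.11 (adjusted p = 0.036), where it stood at 13.3, 13.7 and 13.7 CPM on day 4 and at 19.6, 22.4 and 15.6 CPM on day 10 in WT, Per1-/- and Per2-/-. Leaving out 1 library moved this between 0.32 and 0.57, and the call was kept only without Per2-/- on day 4 or 7. In whole cultures Cry2 differed by 0.31 ± 0.11 (adjusted p = 0.079). Per1, Per2 and Cry1 did not pass between days in whole cultures or in any class in edgeR, with folds from -0.24 to 0.62 between days 4 and 10.

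Of the 29 other clock genes, 5 passed between days 4 and 10 in whole cultures, where 22.7% of all genes passed. Bhlhe41 was higher by 1.05 ± 0.15, and the other 4 were lower, among them the kinases Csnk1d (-0.28 ± 0.08) and Csnk1e (-0.62 ± 0.12) and the receptor Rorb (-0.77 ± 0.15). Csnk1e had a median of 211.6 CPM in neuron-like and 45.0 CPM in fibroblast-like cells, Csnk1d 79.1 and 50.1 CPM, and Rorb was higher in neuron-like cells as given above. Neuron-like cells were 19.1 to 27.8% of cells on day 4 and 3.21 to 7.73% on day 10, the lowest in WT, where 40.7% of cells were in unnamed clusters. Between days 4 and 10 the sum of the neuron markers over whole cultures went from 692 to 666 CPM in WT, from 698 to 349 CPM in Per1-/- and from 714 to 799.8 CPM in Per2-/-, so it was lower by a wide margin in Per1-/- and higher in Per2-/-. Bhlhe41 was highest in macrophage-like cells among the 3 classes measured. The part of these classes in the whole-culture changes was not tested. In neuron-like cells 10 passed, 8 lower and 2 higher, against 42.9% of all genes, among them Dbp (-0.46 ± 0.12), Nr1d2 (REV-ERBβ, -0.37 ± 0.10) and Arntl (-0.36 ± 0.12). In macrophage-like cells 4 passed, against 17.2% of all genes, and Dbp was higher by 1.62 ± 0.14. In the interaction of neuron-like minus fibroblast-like cells with day 11 of the 29 passed lower, as Per3 did, and 3 higher, against 32.5% of all genes. Dbp, Tef and Nr1d2 were among the former, at -0.86 ± 0.15, -0.68 ± 0.10 and -0.73 ± 0.15.

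Levels also varied within a class. Over the 10 fibroblast-like clusters Per3 ran from 20.2 to 45.2 CPM with a median of 31.9, Per2 from 2.69 to 6.40, Per1 from 5.93 to 10.6, Cry1 from 6.83 to 14.95 and Cry2 from 12.2 to 21.5. Over the 4 neuron-like clusters Per1 ran from 0.0 to 7.74 CPM, Per3 from 4.12 to 19.6, Cry1 from 2.06 to 19.5 and Cry2 from 6.18 to 15.4, with the lowest value of each in a cluster of 100 cells that held 0 to 3 UMI of a member. Over the 4 macrophage-like clusters Cry2 ran from 2.33 to 3.497 CPM. Clusters were made from the same cells and carry no test. Some fibroblast-like clusters held mostly cells of 1 library. This was 82.0% of the cluster with the highest Per2, 74.4% of that with the lowest Per1 and 64.5% of that with the highest Cry2. In the clusters at the other ends of the fibroblast-like ranges the largest library gave 18.5% to 24.9% of cells. The part of genotype and day in these ranges was not tested.

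Across the 57 class-by-library sums, Cry1 and Cry2 had the closest pattern of any 2 members (Pearson r = 0.67 of log2(CPM + 1)), followed by Per2 with Cry1 (0.62) and Per3 with Cry2 (0.60), and Per1 with Cry1 had the least close (-0.05). These correlations describe sums that share libraries and classes. Among 11503 genes with a mean of at least 5 CPM, the 3 most like Per3 were Itih5 (0.87), Nid1 (0.87) and Fzd1 (0.85). For Cry1 they were Tmem246 (0.90), Dclk2 (0.90) and Arvcf (0.89), and for Cry2 Sesn3 (0.95), Ahdc1 (0.95) and Zeb1 (0.94). For Per2 they were Lrrc75b (0.74), Ndufv1 (0.72) and Spa17 (0.71). Per1 had no gene above 0.51, its 3 nearest being Slc35a2 (0.51), Pofut1 (0.47) and Gosr2 (0.47).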

How the data were processed

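The libraries are 10x Genomics 3′ libraries of WT, Per1-/- and Per2-/- cultures on days 4, 7 and 10. The deposited values are UMI counts per gene and barcode, made by the authors with Cell Ranger 4.0.0 (days 4 and 7; 31053 features) and 6.0.0 (day 10; 32285 features) per the file headers. The labels name version 7.1 and the build mm10. Genes were restricted to the 30406 shared by both tables, so members were counted on the same identifiers in all libraries.

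Cells needed 3000 or more UMI and no more than 20% of UMI from mitochondrial genes, and the highest doublet scores were removed (0.8% per 1000 barcodes). Cells were clustered (2000 variable genes, 30 components, 15 neighbours, Leiden resolution 1, leidenalg 0.10.2) without 47 genes, which include the members and the clock list, and clusters were named from markers; cells are not replicates, so raw counts were summed per library and class. Sums were tested with edgeR 4.0.16 (TMM, filterByExpr, quasi-likelihood F-test, adjusted p under 0.05), with DESeq2 1.42.0 and limma 3.58.1 as alternatives in R 4.3.3. The days serve as repeats of a genotype, and the labels do not say which libraries share a MEF preparation. In the genotype and day fits the p-values measure the spread between libraries that remains after both factors. Poisson and binomial intervals (95%) cover counting error only. On simulated counts, only the edgeR fits of Per1-/- against WT in whole cultures and of neuron-like against fibroblast-like cells were tried. These counts held no day or library effects beyond depth. The other fits and the exact permutation test were not tried on them.

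Genes named are the 5 members, genes of a list of 29 other clock genes by role (those that passed the test, some of which are not reported here by name), and for each member the 3 genes most correlated with it. The members and lists were chosen with earlier results of these data known.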

Additional observations from a re-analysis of the deposited data

Results flagged for a closer look

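A test of the difference between cell classes marked 3 results, all of Per3. Per3 in Per2-/- minus WT was higher in macrophage-like than in fibroblast-like cells by 1.07 on the log2 scale. The change of Per3 from day 4 to day 10 differed between neuron-like and fibroblast-like cells by -1.16, and between neuron-like and macrophage-like cells by -1.29.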

How the results depend on the processing

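The results compared were mostly those called in the main fit, so most effects near 0 were left out and a change of direction was unlikely. For results between days, the fits with limma-voom and with the Y-linked covariate were left out of this comparison. The results between days were thus not set against the Y-linked level here. Among 434 alternatives, 279 of them fits without 1 library, none changed direction. Of these, 372 kept the direction and the side of the threshold, 61 no longer passed and 1 newly passed. Outside them, Per3 in Per1-/- against WT, which had not passed, moved from 0.41 to -0.10 with the Y-linked covariate, and Per1 in neuron-like against macrophage-like cells, called at -0.38 on the TMM scale, was 0.23 on plain CPM, a scale chosen after seeing the data. Per1 in Per1-/- against WT no longer passed without a day term (0.58), with the Y-linked covariate (0.34) or without day 10 (0.59). Per2 between the mutants no longer passed without a day term (-1.07), with that covariate (-1.36), without day 10 (-1.11), with all barcodes (-1.06) or with doublets kept (-1.06). Per2 in Per2-/- passed with DESeq2 (1.13). The other member calls by DESeq2 or limma-voom given above, which edgeR had not made, were outside the 434 alternatives. Cry2 between days in fibroblast-like cells did not pass at Leiden resolution 0.5 (0.43), nor did Cry1 in neuron-like cells there (0.06) or without the filter (0.17). Leaving out 1 library gave 0.54 to 0.65 for Per1 in Per1-/-, -1.19 to -0.97 for Per2 between the mutants, 0.32 to 0.57 for Cry2 and 0.67 to 0.95 for Per3 between days in fibroblast-like cells, 0.83 to 1.14 for Per3 between days in macrophage-like cells, 0.17 to 0.27 for Cry1 in neuron-like cells, and 0.70 to 1.24 for Per3 in the macrophage-like interaction. DESeq2 passed 1313, 295 and 1174 genes in whole cultures where edgeR passed 441, 0 and 105 (Per1-/- against WT, Per2-/- against WT, and between the mutants). The cause of these changes was not tested. The order of classes had 5 of 30 steps past the threshold with a pseudocount of 1 and of 0.1. These 5 had the same sign in every library and the smallest possible p, which a pseudocount cannot change, so this does not check them. Low counts limit Per2 in Schwann cell-like cells of WT (6 to 11 UMI), in mesothelium-like cells (7 to 18 UMI) and in macrophage-like cells of WT (6, 7 and 17 UMI). They also limit it in neuron-like cells (9 UMI in WT on day 10 and in Per1-/- on day 7).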
